A study of Homo sapiens with 4 samples.

Results

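The RAB GTPases are the largest family of small GTPases, and 49 RAB mRNAs were found among the 13300 gene names measured by RNA immunoprecipitation sequencing (RIP-seq) in HCCLM3, a human hepatocellular carcinoma cell line. They were taken by name (RAB followed by a number and at most 1 letter), and MLPH (melanophilin), an effector protein of RAB27, is shown beside them. In RIP-seq, an antibody against a protein pulls that protein and its bound RNAs out of a cell lysate, and the RNAs are sequenced. A KIAA1429 antibody was used for 2 libraries (KIAA1429 RIP, replicates 1 and 2) and normal IgG for the other 2 (IgG RIP, replicates 1 and 2), all from HCCLM3 cells with no other treatment in the labels. KIAA1429, also called VIRMA, is a subunit of the complex that writes N6-methyladenosine (m6A) into mRNA, often within a GGAC sequence, and the comparison asks which mRNAs came down with it beyond the IgG background. No library of the unprecipitated lysate was analysed here, so a ratio sets the antibody against IgG and not against the amount in the cell. The labels do not say whether the replicates came from separate cultures, so the p-values measure only the spread between these samples, which may be technical.

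RAB proteins switch between a GTP-bound form that recruits effectors to a membrane and a GDP-bound form that is extracted into the cytosol. Each RAB marks particular membranes, so that RAB1 acts between the endoplasmic reticulum (ER) and the Golgi, RAB5 on early endosomes, RAB7A on late endosomes and lysosomes, RAB11 on recycling endosomes and RAB27 on secretory granules and exosome release. Hepatocytes depend on these routes to secrete plasma proteins and to take up and degrade receptors.

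Most members share the codons of the G3 loop, a tryptophan and aspartate followed by threonine, alanine and glycine, which reads the state of the bound nucleotide. Where the aspartate codon is spelled with C, these codons hold GGAC, and where it is spelled with T they hold GGAT. The stretch is shown because it is the sequence most members have in common and because its spelling decides whether a GGAC lies there. The runs below are coding-strand reads of spliced GENCODE transcripts on GRCh37, with GGAC or GGAT in capitals. A run is given without a position where it spans an exon junction.
RAB7A, chr3:128525218-128525238, plus strand: tgGGACacagcaggacaggaa
RAB5C, chr17:40280742-40280762, minus strand: tgGGACacagctggacaggag
RAB1B, chr11:66039836-66039856, plus strand: tgGGACacagcgggccaggaa
RAB9A, chrX:13727046-13727066, plus strand: tgGGACacggcaggtcaggag
RAB24: tgGGACacagcaggctctgag
RAB27B, chr18:52546663-52546683, plus strand: tgGGACactgcgggacaagag
RAB10: tgGGATacagcaggccaggag
RAB5A, chr3:20017149-20017169, plus strand: tgGGATacagctggtcaagaa
RAB39B, chrX:154493367-154493387, minus strand: tgGGATaccgcgggtcaagag
The search was for TGG, then GAC or GAT, then ACN, GCN and GGN as codons in frame, on the coding strand only. It found this run in 43 of the 49 RAB coding sequences, and in 0.125% of the coding sequences of 10403 other genes. Of the 43, 31 (72.1%) held GGAC and 12 (27.9%) held GGAT. Over other genes, 52.5% of in-frame tryptophan-aspartate codon pairs were spelled with GAC. A GGAC is a match of letters and not a methylated site, and m6A was not measured in these libraries.

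Values are FPKM (a fragment count corrected for transcript length and for library size) deposited per transcript, here summed per gene. The 4 libraries summed to between 295573 and 340300 FPKM over 34975 transcripts, and 26.6% to 32.2% of the transcripts were listed at 0. Read counts were not used here, so depth is unknown, and a value of 0 is described only as listed at 0. All 12 markers of hepatocyte-derived cells were listed, among them AFP at 99.1 to 127.8 FPKM and ALB at 53.5 to 76.3 FPKM. Of 10 markers of blood, endothelium and fibroblasts, CD68 alone was listed, at 28.7 to 72.2 FPKM, with the groups overlapping.

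The RAB mRNAs made up a similar share of the KIAA1429 RIP and IgG RIP libraries. Their summed level was 1138 and 950.9 FPKM with IgG and 1092 and 1094 FPKM with KIAA1429, which was 0.301% to 0.385% of all FPKM. The KIAA1429 sums lie between the IgG sums. FPKM is corrected for library size, so the amount of RNA that each antibody precipitated is not known. Each library pools many cells, so less RNA per cell and RNA in fewer cells cannot be told apart. Of 49 members, 47 averaged at least 1 FPKM and were tested, while RAB40B and RAB42 did not reach it. RAB40C passed only through its KIAA1429 RIP values and RAB39B only through its IgG RIP values, so the groups of both had to differ and their p-values are left out. By limma, 0 of the 47 passed the call (adjusted p under 0.05 and a log2 fold change beyond 1), and 0% of all 11361 gene totals did. At an unadjusted limma p under 0.05 there were 2 higher and 1 lower in KIAA1429 RIP among the members, against 3.17% higher and 1.43% lower of all gene totals. The 2 higher include RAB40C. The count of 3 was smaller without IgG RIP replicate 1 and without KIAA1429 RIP replicate 2. The groups did not overlap for 10 members that were higher and 10 that were lower, against 16.6% and 15.2% of all gene totals. The log2 ratio of KIAA1429 RIP to IgG RIP group means was above 0 for 25 members and below 0 for 22, against 50.6% and 49.4% of all gene totals, and its median was 0.03 over the 47 members and 0.01 over all gene totals. For 31 of the 44 members with an error, the error of the log2 ratio, which combines the SDs of the log2 values in both groups, was greater than the ratio.

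**Figure D1:**
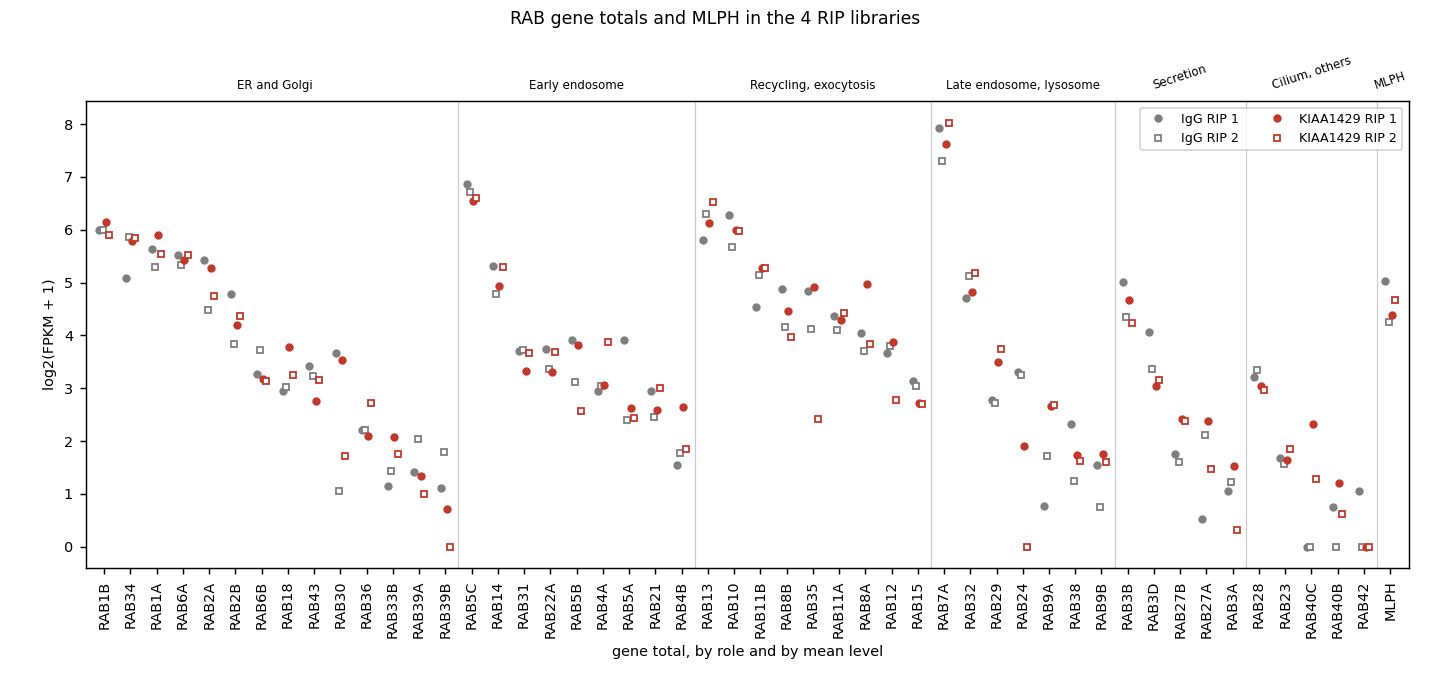
Level of each RAB gene total and of MLPH as log2(FPKM + 1), on the y axis, with genes on the x axis grouped by role and ordered by mean; grey marks are IgG RIP, red marks are KIAA1429 RIP, filled circles are replicate 1 and open squares are replicate 2. RAB7A stands at the top in each library, and RAB40C is at 0 in both IgG RIP libraries.

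The same few RABs dominated every library. RAB7A, which directs fusion of late endosomes with lysosomes, stood first with 241.6 and 157.5 FPKM with IgG and 196.6 and 260.3 FPKM with KIAA1429, and held 16.6% to 23.8% of the RAB sum. RAB5C, a RAB5 form on early endosomes, came next with 115.8 and 104.4 FPKM with IgG and 91.97 and 96.52 FPKM with KIAA1429. Every RAB7A value lies above every RAB5C value, and RAB5C alone of the 5 most abundant members had groups that did not overlap, with both KIAA1429 values below both IgG values. Its log2 ratio was -0.22 ± 0.12, and the limma adjusted p was 0.998. RAB13, which carries proteins to tight junctions, gave 54.79 and 77.31 FPKM with IgG against 69.1 and 91.71 FPKM with KIAA1429. RAB1B, which acts from the ER to the Golgi, measured 62.45 and 63.19 FPKM with IgG, and 69.58 and 58.81 FPKM with KIAA1429. RAB10, which serves polarised exocytosis, was at 76.41 and 50.31 FPKM with IgG and at 63.16 and 61.88 FPKM with KIAA1429. The ranges of RAB13, RAB1B and RAB10 overlap each other, so their order is within the spread between libraries. Together the 5 held 44.9% to 52.0% of the RAB sum in each library. By mean level, RAB7A ranked 180 and RAB5C ranked 430 among the 13300 gene names.

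Across all 49 members, the order of levels was alike in the libraries. Replicates correlated with a Spearman's rho of 0.926 in IgG RIP and 0.915 in KIAA1429 RIP, and libraries of different groups with 0.865 to 0.913, over 49 gene totals that share transcript lengths and base composition. The median SD of log2(FPKM + 1) between replicates was 0.30 in IgG RIP and 0.26 in KIAA1429 RIP for the tested members, against 0.37 and 0.30 for all gene totals.

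Late endosomal, lysosomal and autophagy RABs held the member with the lowest log2 ratio, RAB24, and the highest among those above 0 in both groups, RAB9A. RAB9A (chrX:13707244-13728625, plus strand), which returns mannose 6-phosphate receptors from late endosomes to the Golgi, gave 0.697 and 2.31 FPKM with IgG against 5.34 and 5.45 FPKM with KIAA1429. Both KIAA1429 values lie above both IgG values, although the IgG values are themselves far apart. The mean was 1.50 ± 1.14 FPKM (SD, n = 2) in IgG RIP and 5.39 ± 0.08 FPKM (SD, n = 2) in KIAA1429 RIP, which was 3.59-fold higher. The limma log2 fold change on log2(FPKM + 1) was 1.43 ± 0.56 (SE), with an unadjusted p of 0.0372 and an adjusted p of 0.998. RAB9B, its paralogue, measured 1.92 and 0.680 FPKM with IgG, and 2.38 and 2.03 FPKM with KIAA1429, named here after its values were seen.

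RAB24 (chr5:176728452-176730711, minus strand), which takes part in the clearance of autophagic compartments, was at 8.89 and 8.48 FPKM with IgG and at 2.73 and 0 FPKM with KIAA1429. The IgG values are close together and both lie above the KIAA1429 values. The group means were 6.37-fold lower in KIAA1429 RIP, and the limma log2 fold change was -2.33 ± 0.70 (SE), with an unadjusted p of 0.0128 and an adjusted p of 0.993. In the annotation, 55.1% of the exonic bases of RAB24 also belong to MXD3 on the same strand. MXD3, which encodes a MYC network repressor, gave 2.15 and 0 FPKM with IgG against 4.83 and 0 FPKM with KIAA1429, and the part of this overlap in the RAB24 values was not tested.

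RAB29, a partner of the kinase LRRK2 at lysosomes and the Golgi, measured 5.85 and 5.55 FPKM with IgG, and 10.3 and 12.4 FPKM with KIAA1429. The groups do not overlap and the replicates are close, so that the log2 ratio of 0.99 ± 0.19 exceeded its error, while the limma adjusted p was 0.998. On its most abundant transcript alone the limma log2 fold change was -0.249, in the opposite direction. RAB32 and RAB38, which bring enzymes to lysosome-related organelles, ranged over 25.1 to 35.4 FPKM and 1.37 to 4.02 FPKM, with overlapping groups. Of the 7 tested members of this role, 3 lay higher and 1 lay lower in KIAA1429 RIP without overlap of the groups, where all gene totals gave 16.6% and 15.2%.

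**Figure D2:**
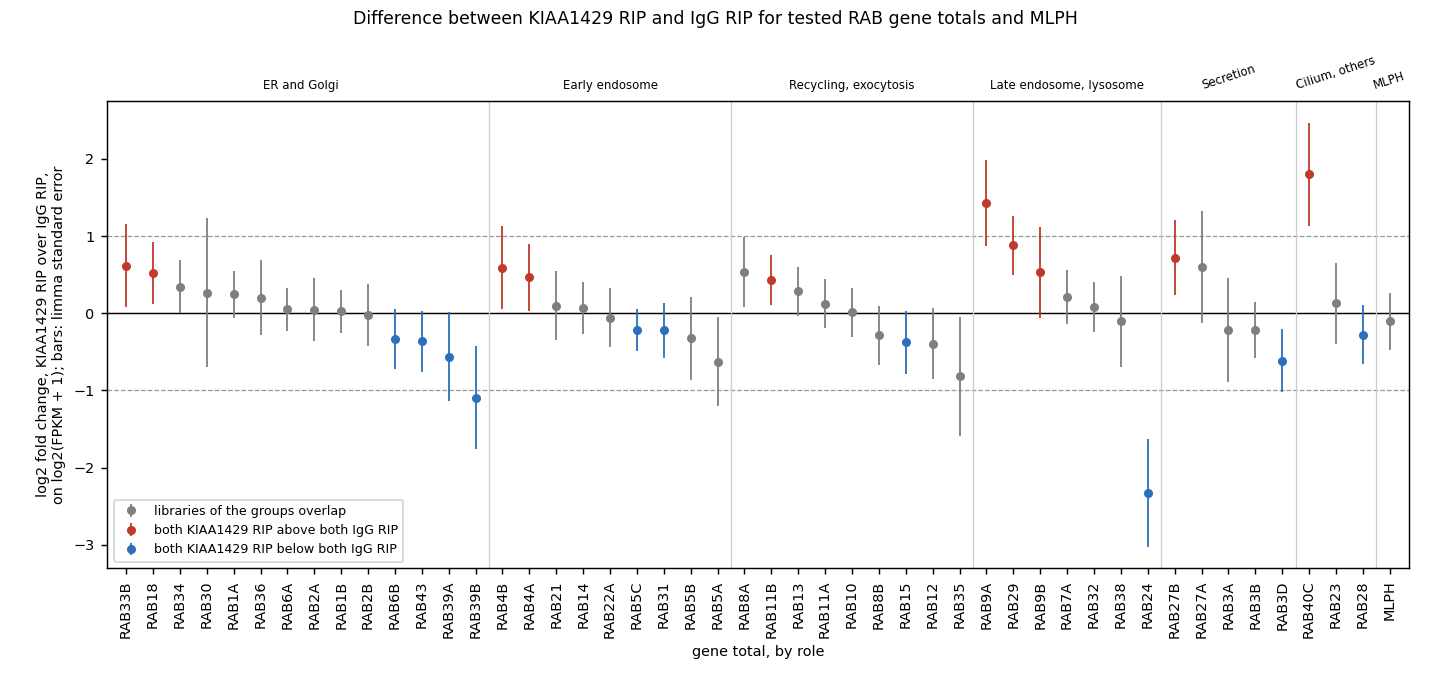
Log2 fold change of KIAA1429 RIP over IgG RIP on log2(FPKM + 1) for the 47 tested RAB gene totals and MLPH, grouped by role on the x axis, with limma standard errors as bars; red and blue mark members whose groups do not overlap, and dashed lines stand at 1 and -1. Most bars cross or come near 0, and RAB9A (1.43), RAB40C (1.80) and RAB24 (-2.33) lie farthest out.

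Among the RABs of the ER and Golgi, 14 were tested, of which 2 were higher and 4 lower without overlap of the groups, against 16.6% and 15.2% of all gene totals. RAB1A, needed for transport from the ER to the Golgi, was at 48.7 and 38.5 FPKM with IgG and at 58.5 and 45.4 FPKM with KIAA1429. Its groups overlap and its log2 ratio was 0.25 ± 0.35, and 21.2% of its exonic bases are also exonic in CEP68 on the opposite strand. RAB33B, a Golgi RAB that binds the autophagy protein ATG16L1, gave 1.22 and 1.71 FPKM with IgG against 3.19 and 2.38 FPKM with KIAA1429, so that both KIAA1429 values were the higher ones. RAB39B, whose gene on the X chromosome is mutated in some forms of intellectual disability, measured 1.16 and 2.48 FPKM with IgG, and 0.649 and 0 FPKM with KIAA1429. The group means of RAB39B were 5.60-fold lower in KIAA1429 RIP, and all values lie at the low end of the family. RAB39A, its paralogue, was at 1.67 and 3.08 FPKM with IgG and at 1.52 and 0.984 FPKM with KIAA1429. Both RAB39 genes were thus lower in both KIAA1429 libraries than in either IgG library, by margins smaller than the gap between the IgG replicates for each gene. The median limma log2 fold change over the 14 members was 0.05, against 0.02 over all gene totals.

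Early endosomal RABs divided evenly between the directions. The 9 tested members had a median limma log2 fold change of -0.06, with 2 higher and 2 lower without overlap (16.6% and 15.2% of all gene totals). RAB5A, which drives fusion of early endosomes, gave 14.0 and 4.29 FPKM with IgG against 5.15 and 4.40 FPKM with KIAA1429. Its log2 ratio of -0.94 ± 1.22 rests on IgG RIP replicate 1, since the other 3 values lie within 4.29 and 5.15 FPKM. Without that library, the limma log2 fold change was 0.13 in the opposite direction.

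For the recycling and exocytic RABs, 9 were tested, with 1 higher and 1 lower without overlap of the groups, beside 16.6% and 15.2% of all gene totals. RAB11A, the marker of recycling endosomes, measured 19.5 and 16.2 FPKM with IgG, and 18.6 and 20.3 FPKM with KIAA1429, with a log2 ratio of 0.12 ± 0.21. RAB35, an endosomal RAB named after its values were seen, was at 27.5 and 16.4 FPKM with IgG and at 29.2 and 4.31 FPKM with KIAA1429. The KIAA1429 values of RAB35 enclose the IgG values, and the error of its log2 ratio, 2.02, was the largest of this role.

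RABs of regulated secretion included the RAB27 pair. RAB27B gave 2.37 and 2.03 FPKM with IgG against 4.35 and 4.18 FPKM with KIAA1429, a log2 ratio of 0.96 ± 0.16. Its groups do not overlap and its replicates are close, while its limma log2 fold change was 0.72 ± 0.49 (SE) with an adjusted p of 0.998. RAB27A, which tethers melanosomes and cytotoxic granules, measured 0.442 and 3.35 FPKM with IgG, and 4.21 and 1.77 FPKM with KIAA1429, with overlapping groups. MLPH, which links RAB27A to myosin Va, was at 31.75 and 17.96 FPKM with IgG and at 20.04 and 24.44 FPKM with KIAA1429. Both KIAA1429 values of MLPH lie between its IgG values, and its log2 ratio was -0.16 ± 0.62 with a limma adjusted p of 0.998. Its limma log2 fold change of -0.11 turned to 0.67 with the most abundant transcript alone, to 0.29 without IgG RIP replicate 1 and to 0.03 without KIAA1429 RIP replicate 1. Of its transcripts, the processed transcript ENST00000485956 had 1.12 and 0 FPKM with IgG and 4.54 and 2.08 FPKM with KIAA1429, without overlap, and it passed the filter only through the KIAA1429 values. ENST00000415753 had 3.81 and 0 FPKM with IgG and 3.29 and 5.52 FPKM with KIAA1429, with overlapping groups. Both transcripts were named after their values were seen. Of the 8 MLPH transcripts, ENST00000409373, ENST00000434770, ENST00000468178 and ENST00000477501 had lower group means in KIAA1429 RIP. The most abundant, ENST00000409373, had 12.8 and 0 FPKM with IgG and 4.08 and 5.89 FPKM with KIAA1429. MLPH is a candidate gene that the study chose partly on these libraries, among transcripts it reported as 2-fold enriched with KIAA1429. The gene total here, with its log2 ratio of -0.16, did not show such enrichment, while ENST00000485956 and ENST00000415753 had log2 ratios of 2.56 and 1.21. The study's test used other steps, and these values are not independent evidence on that choice. RAB3D, of secretory granules, gave 15.7 and 9.25 FPKM with IgG against 7.21 and 7.91 FPKM with KIAA1429, below both IgG values and with a log2 ratio of -0.72 ± 0.55.

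In the remaining role, which holds ciliary and other RABs, 3 of 5 listed members were tested. RAB40C (chr16:639357-679271, plus strand), a RAB with a SOCS box that joins a ubiquitin ligase, was listed at 0 in both IgG RIP libraries and had 3.98 and 1.44 FPKM in KIAA1429 RIP. No fold is given against a group listed at 0. The limma log2 fold change on log2(FPKM + 1), given as a description, was 1.80 ± 0.67 (SE). RAB40B, its paralogue below the filter, measured 0.678 and 0 FPKM with IgG, and 1.32 and 0.532 FPKM with KIAA1429, and shares with RAB40C a coding identity of 79.7% and an identical run of 55 bases. RAB42 was listed at 1.06 FPKM in IgG RIP replicate 1 and at 0 in the other 3 libraries.

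Group means were at least 2-fold apart for 4 of the 47 tested members, with RAB9A and RAB40C higher and RAB24 and RAB39B lower in KIAA1429 RIP. RAB40C passed the filter only through KIAA1429 RIP and RAB39B only through IgG RIP, so the groups of both had to differ. Over all gene totals, 7.58% reached a 2-fold difference in the higher direction and 6.14% in the lower. With 1 library left out these member counts changed, and the lower count was largest without KIAA1429 RIP replicate 1. The matching shares of all gene totals are not given here. The tested members nearest to the 2-fold line were RAB9A beyond it, at a log2 ratio of 1.84, and RAB29 short of it, at 0.99. All 4 had a mean of at most 5.03 FPKM, and the 34 members with a mean of at least 5 FPKM hold 1 of them, RAB24.

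Paralogues kept their proportions in some sets and not in others. RAB5C made up 80.5% to 91.2% of the RAB5 sum in each library, and RAB1A 37.8% to 45.7% of the RAB1 sum. RAB8A, which like RAB8B serves transport to the plasma membrane, made up 35.3% and 41.7% of the RAB8 sum with IgG, against 59.0% and 47.3% with KIAA1429. The RAB8 shares do not overlap, and the set was named after its values were seen. RAB9A made up 26.6% and 77.2% of the RAB9 sum with IgG, against 69.2% and 72.9% with KIAA1429, so that IgG RIP replicate 1 alone stood apart. RAB27A made up 15.7% and 62.3% of the RAB27 sum with IgG, against 49.2% and 29.8% with KIAA1429, where the replicates of both groups differ widely. Coding sequences of paralogues were 67.1% to 79.7% identical over 16 pairs, with identical runs of 14 to 55 bases, and how reads shared by paralogues were assigned is not given in the sources used here. Exons shared with other genes on the same strand make up 88.3% of the exonic bases of RAB43 (with ISY1-RAB43) and 65.6% of those of RAB4B (with MIA-RAB4B), so these totals are uncertain.

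**Figure D3:**
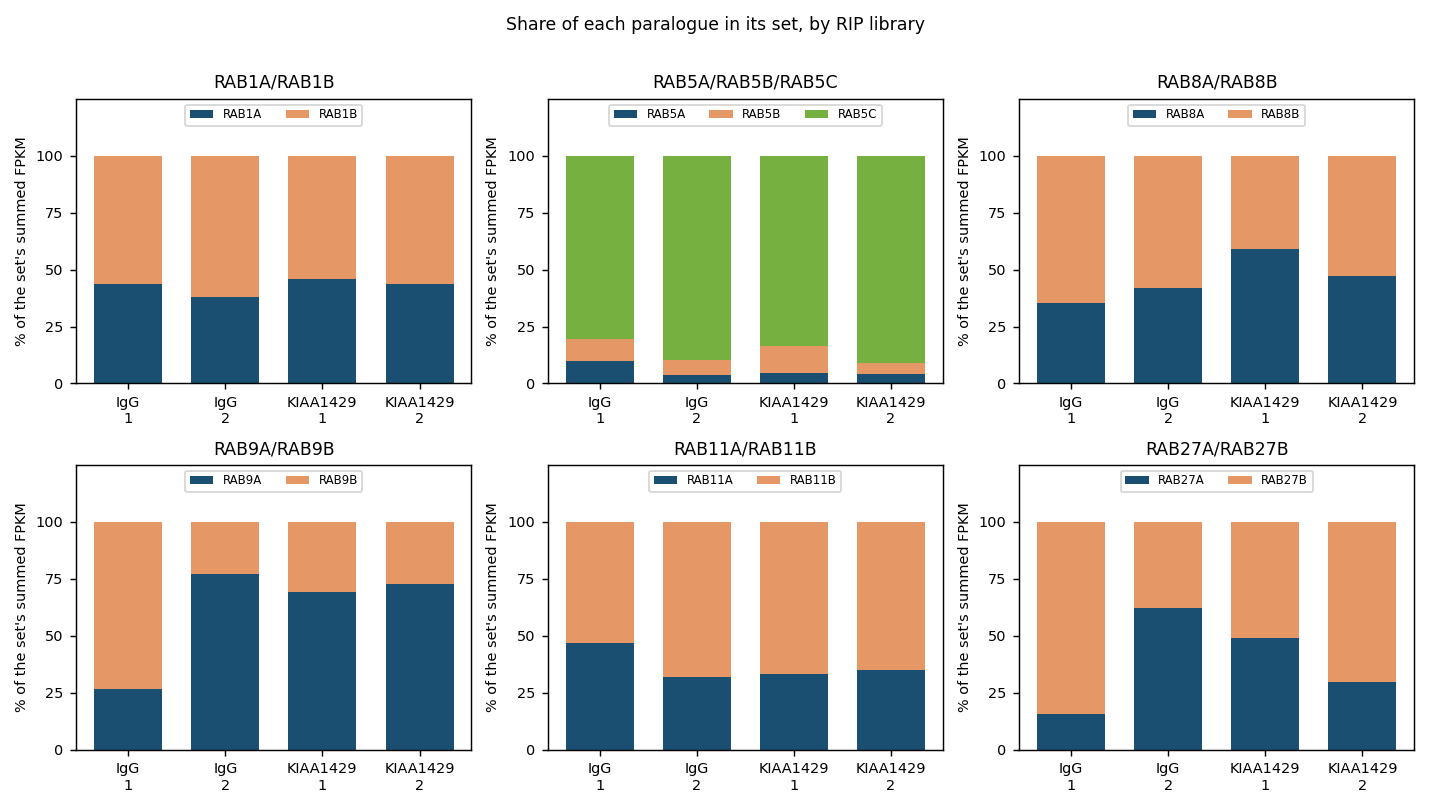
Percent of the summed FPKM of a paralogue set (y axis) held by each member, stacked in each of the 4 RIP libraries (x axis), for 6 sets. RAB5C fills 80.5% to 91.2% of the RAB5 bar throughout, while RAB9A and RAB27A have their lowest share in IgG RIP replicate 1.

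Single transcripts of some RAB genes lay farther apart between the groups than the gene totals. Transcripts of a gene share bases, and how shared reads were assigned to them is not given in the sources used here. The files list 100 RAB transcripts, of which 76 averaged at least 1 FPKM. By limma, 0 of the 76 passed the call, against 0% of all 23375 transcripts tested. At an unadjusted p under 0.05 there were 3 higher and 3 lower in KIAA1429 RIP among the RAB transcripts, against 3.03% higher and 2.33% lower of all transcripts. This count of 6 changed with any 1 library left out, where the matching share of all transcripts is not given here. Of the 76, 16 passed the filter through 1 group alone, 5 of the 6 among them, so no p is given for those 5. The groups did not overlap for 13 RAB transcripts that were higher and 14 that were lower, against 15.2% and 14.5% of all transcripts, and 10 of these 27 passed the filter through 1 group alone.

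RAB34, which acts in cilium formation and lysosome positioning, had a transcript (ENST00000450529) that was listed at 0 in both IgG RIP libraries and had 20.4 and 8.21 FPKM in KIAA1429 RIP. The gene total of RAB34 was 32.8 and 57.3 FPKM with IgG and 54.2 and 56.6 FPKM with KIAA1429, with overlapping groups. RAB29 had a transcript (ENST00000235932) listed at 0 in both IgG RIP libraries and at 5.13 and 4.49 FPKM in KIAA1429 RIP. The other main RAB29 transcript (ENST00000367139) was at 5.85 and 5.55 FPKM with IgG and at 4.13 and 5.19 FPKM with KIAA1429, so the higher total of RAB29 in KIAA1429 RIP lay in transcripts listed at 0 in IgG RIP. The first is 1723 bases long and holds no base outside the second, which is 3308 bases long with the same coding length of 612 bases. FPKM is corrected for transcript length, so the RAB29 total also depends on how reads were split between them, which was not tested. RAB11B, a second RAB11 form, gave 19.2 and 19.5 FPKM with IgG against 34.3 and 36.4 FPKM with KIAA1429 for ENST00000328024, with an unadjusted limma p of 0.0451 and an adjusted p of 0.879. Its other transcript, ENST00000594216, had a lower mean with KIAA1429, at 3.01 and 15.02 FPKM with IgG and 3.32 and 1.61 FPKM with KIAA1429. The gene total was 22.26 and 34.55 FPKM with IgG and 37.62 and 37.99 FPKM with KIAA1429, with a limma adjusted p of 0.998.

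RAB24 had lower values in both of its longer transcripts. ENST00000303251 had 4.85 and 4.24 FPKM and ENST00000303270 had 4.05 and 4.03 FPKM in IgG RIP, and both were listed at 0 in both KIAA1429 RIP libraries. The 2.73 FPKM of RAB24 in KIAA1429 RIP replicate 1 came from ENST00000393611 alone. RAB11A had a short transcript (ENST00000566233) of 2.68 and 4.89 FPKM in IgG RIP that was listed at 0 in both KIAA1429 RIP libraries. All 3 passed the filter only through IgG RIP.

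RAB transcripts listed at 0 in both IgG RIP libraries and above 0 in both KIAA1429 RIP libraries numbered 8 of 100 (8.0%), against 3.20% of all 34975 transcripts. The converse held for 4 of 100 (4.0%), against 2.96% of all transcripts. Each listed transcript reached 0.5001 FPKM in the mean of 1 group. Those at 0 in both libraries of a group were thus listed only through the other group, and these shares are a description. The 8 belong to RAB5B, RAB10, RAB11A, RAB29, RAB34 and RAB40C, so some of them share a gene.

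**Figure D4:**
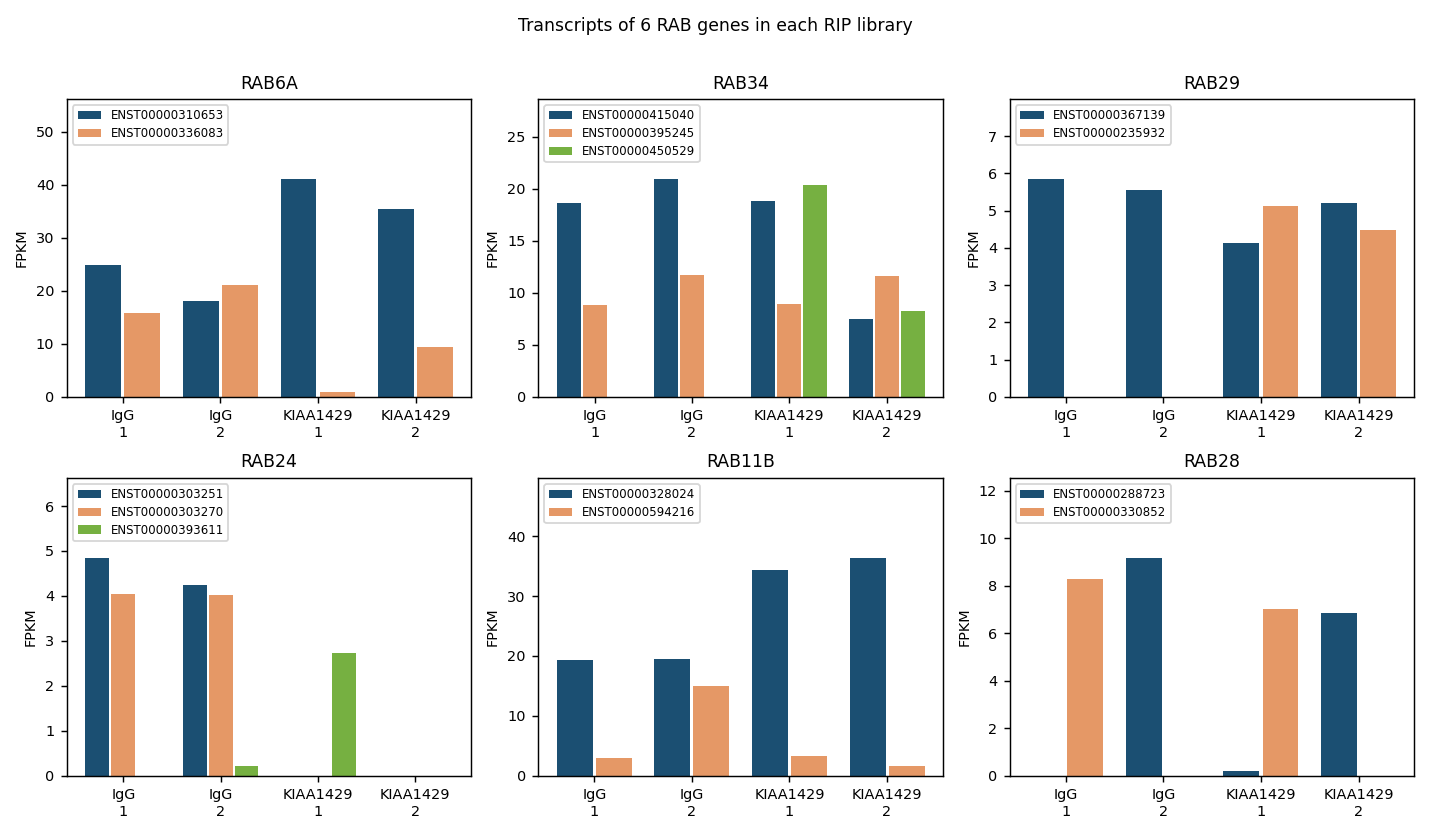
FPKM (y axis, from 0) of the main transcripts of 6 RAB genes in each RIP library (x axis), with colours marking transcripts. The RAB34 transcript ENST00000450529 and the RAB29 transcript ENST00000235932 have no bar in IgG RIP, and the RAB28 transcripts change places with the replicate number.

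RAB6A, which directs traffic from endosomes and within the Golgi, showed an exchange between transcripts at an even total, and was named after its values were seen. The gene total was 44.7 and 39.2 FPKM with IgG and 42.0 and 44.8 FPKM with KIAA1429. ENST00000310653 measured 24.9 and 18.1 FPKM with IgG, and 41.1 and 35.4 FPKM with KIAA1429. ENST00000336083 was at 15.9 and 21.1 FPKM with IgG and at 0.892 and 9.42 FPKM with KIAA1429. The groups do not overlap for either transcript, in opposite directions, and the limma adjusted p was 0.879 for both. The first made up 51.1% of the gene's mean level in IgG RIP and 88.1% in KIAA1429 RIP.

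These RAB6A transcripts have the same coding length of 627 bases and use alternative versions of exon 4, each of 106 bases, of which 31 differ. The first 30 bases of each exon are shown, on the minus strand, from chr11:73429906-73429935 and chr11:73429734-73429763 of GRCh37. This window was chosen because no other of 30 bases in the exon held more bases that differ, and the G3 codons lie in it. Capitals mark the 12 bases that differ in this window.
ENST00000310653: AtCAgGCtTcaGCtGtgggaTacTgcGggt
ENST00000336083: GtACgATtGcaATtAtgggaCacAgcAggt
The version with GGAT at the aspartate codon belongs to the transcript that was higher in KIAA1429 RIP, and the version with GGAC to the one that was lower.

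Over the family, log2 fold changes of the gene totals had the following medians under each spelling of the G3 codons. The 30 tested members with GGAC there had a median log2 ratio of 0.02, with 16 above 0 and 14 below. The 12 tested members with GGAT also had a median log2 ratio of 0.02, with 6 above 0 and 6 below. Over whole transcripts, the tested members held a median of 2.81 GGAC per kilobase, against 3.62 for all gene totals with a complete coding sequence. The coding part was shorter in RAB mRNAs, with a median of 642 bases against 1320, and the 3′ UTR was longer, with a median of 2260 bases against 1210. A GGAC within 200 bases of the end of the stop codon on either side was found in 76.6% of the tested members and in 78.7% of all gene totals. Across the 47 tested members, Spearman's rho of the limma log2 fold change was 0.04 with transcript length and -0.15 with GGAC per kilobase. Over 10450 gene totals the same values were -0.24 and -0.10, and all of these points share the same 4 libraries.

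Some transcripts followed the replicate number and not the antibody. RAB28, a ciliary RAB named after its values were seen, gave 0 and 9.18 FPKM with IgG against 0.197 and 6.84 FPKM with KIAA1429 for ENST00000288723. ENST00000330852 measured 8.29 and 0 FPKM with IgG, and 7.01 and 0 FPKM with KIAA1429. The first was thus seen mainly in the replicates numbered 2 and the second only in those numbered 1, whichever antibody was used, while the RAB28 total stayed within 6.84 and 9.18 FPKM. The next counts take features where both replicates of one number were at least 2-fold above both of the other, ties at 0 included. This held for 14 of 76 RAB transcripts (18.4%), against 19.2% of all transcripts. Some of the 14 were above 0 in a single library, such as ENST00000409751 of RAB1A (30.6 FPKM in KIAA1429 RIP replicate 1). For gene totals this 2-fold gap held for 1 of 47 (RAB30), against 5.42% of all gene totals. Smaller gaps by replicate number, as for RAB3B and RAB13, were not counted. RAB30, a Golgi RAB, was at 11.7 and 1.08 FPKM with IgG and at 10.6 and 2.30 FPKM with KIAA1429.

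Regulators and effectors of the RABs were taken from 5 lists, of proteins for prenylation and membrane extraction, guanine nucleotide exchange factors, GTPase-activating proteins, RAB27 effectors and effectors of other RABs. Of 157 genes, 141 were listed and 136 tested, of which 0 passed the limma call (0% of all gene totals), and 2 were higher and 3 lower at an unadjusted p under 0.05, against 3.17% and 1.43% of all gene totals. This count of 5 was smaller without IgG RIP replicate 2 and without either KIAA1429 RIP library. The groups did not overlap for 24 genes that were higher and 21 that were lower, against 16.6% and 15.2% of all gene totals, and the median log2 ratio was 0.07. The prenylation and extraction list had 6 of 10 tested genes higher and 1 lower without overlap, where 16.6% and 15.2% of all gene totals were. RABAC1, the prenylated RAB acceptor that helps to load RABs onto membranes, gave 15.4 and 10.9 FPKM with IgG against 28.5 and 23.0 FPKM with KIAA1429. Both KIAA1429 values lie above both IgG values, with a limma log2 fold change of 0.93 ± 0.34 (SE), an unadjusted p of 0.0311 and an adjusted p of 0.998.

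Exchange factors included both higher and lower genes. TRAPPC5, a subunit of the TRAPP complexes that activate RAB1, measured 4.50 and 11.6 FPKM with IgG, and 20.7 and 16.5 FPKM with KIAA1429. GAPVD1, an exchange factor for RAB5, was at 12.8 and 16.7 FPKM with IgG and at 5.67 and 1.49 FPKM with KIAA1429. RIN3, also an exchange factor of the RAB5 group, gave 11.4 and 14.3 FPKM with IgG against 3.87 and 4.99 FPKM with KIAA1429. The groups did not overlap for any of these, with GAPVD1 and RIN3 lower and TRAPPC5 higher in KIAA1429 RIP. RIN1, another exchange factor for RAB5 and named after its values were seen, lay the other way, at 17.6 and 13.1 FPKM with IgG and at 17.9 and 20.02 FPKM with KIAA1429. Their limma log2 fold changes were 1.23 for TRAPPC5, -1.94 for GAPVD1 and -1.35 for RIN3, with adjusted p from 0.993 to 0.998. Over the 41 tested exchange factors, 5 were higher and 9 lower without overlap (all gene totals 16.6% and 15.2%), and the median log2 ratio was -0.07.

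EHBP1, an effector of RAB8 and RAB10, measured 21.8 and 12.2 FPKM with IgG, and 7.95 and 6.78 FPKM with KIAA1429, with a limma log2 fold change of -1.06 and an adjusted p of 0.998. Of the RAB27 effectors, 5 of 11 were listed and 3 tested (SYTL4, MYO5A and RPH3AL), and the groups overlapped for all 3. MYO5A, the myosin that MLPH joins to RAB27A, ranged over 7.83 to 12.7 FPKM. For the GTPase-activating proteins, 7 of 32 tested genes were higher and 4 lower without overlap, and for effectors of other RABs 6 of 50 were higher and 7 lower, beside 16.6% and 15.2% of all gene totals. Among small GTPases outside the name rule, 0 of 21 tested passed the call, and 5 were higher and 3 lower without overlap of the groups, against the same shares of all gene totals.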

How the data were processed

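The 4 RIP-seq libraries of HCCLM3 cells, 2 with the KIAA1429 antibody and 2 with IgG, were grouped by their labels. Per the methods, the precipitated RNA was enriched for poly(A) mRNA, broken chemically, primed randomly and sequenced on an Illumina HiSeq system, whereas the extract protocol in the labels names Trizol and a TruSeq kit and neither immunoprecipitation nor poly(A) selection, and which holds was not settled. Reads were aligned to GRCh37/hg19. The methods name HISAT2 as the aligner and the submitters' processing notes name Bowtie2 2.1.0. The authors deposited FPKM values per transcript. The tool that estimated them and the annotation release are not given in the sources used here, nor is whether strand was used in counting, so reads of genes that overlap on opposite strands, such as RAB23 with BAG2 (58.8% of the exonic bases of RAB23), cannot be told apart. FPKM steps gave no whole reads, since the best of many trial steps put at most 38.9% of low values within 0.05 of a whole multiple. By chance a fixed step would give 10.0%, and the chance level of the best step was not computed. So no count test was run, depth is unknown, and precision was judged from the replicates. Each listed transcript reached 0.5001 FPKM in the mean of 1 group. Of 62 protein-coding RAB names in GENCODE v44 on GRCh37, 13 were not analysed here.

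FPKM was summed per gene name. Features with a mean of at least 1 FPKM entered limma 3.58.1 (R 4.3.3) as log2(FPKM + 1), with a mean-variance trend, two-sided tests and p-values adjusted by Benjamini-Hochberg over all of them, and folds on that scale understate changes of low genes. A call was an adjusted p under 0.05 and a log2 fold change beyond 1, thresholds taken from the study's methods. Exact permutation of 4 libraries cannot reach 0.05 for a gene. Other values used Python 3.11.15, pandas 2.3.3 and numpy 2.4.6. Transcripts were matched to GENCODE by identifier (107 of 108 member transcripts), and the sequence features use 1 transcript a gene. Genes named are the 5 most abundant, the 5 highest and 5 lowest ratios, those with an unadjusted p under 0.05 or 2-fold apart, RAB27A, RAB27B, MLPH, RAB1A, RAB5A, RAB7A and RAB11A, and RAB transcripts and pathway genes with an unadjusted p under 0.05. The members and lists were chosen with earlier results of these data known. Alternatives were other pseudocounts, filters, scalings, transcript choices, no trend, the replicate number as a block, and each library left out.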

Additional observations from a re-analysis of the deposited data

How the results depend on the processing

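No RAB gene total, RAB transcript or pathway gene passed the limma call under the alternatives run. For gene totals the lowest limma adjusted p was 0.164 (RAB24, replicate block). The lowest for transcripts fell on ENST00000303251, which passed the filter only through IgG RIP, so it is not given. FPKM without counts limits what these 4 libraries can show, since counting error is unknown and the members farthest apart are low. The labels do not say whether a replicate number marks a shared preparation. By number, deviations from the group means correlated at 0.186 over 47 RAB gene totals and 0.187 over all, and at 0.52 over 76 RAB transcripts and 0.0299 over all transcripts. Whether the numbers pair the libraries is not settled by these values, and with the replicate block 13 of 11361 gene totals but 0 RABs were called.

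At an unadjusted limma p under 0.05, 3 RAB gene totals became 1 with a filter at 5 FPKM. They were also fewer without IgG RIP replicate 1 and without KIAA1429 RIP replicate 2. The 6 RAB transcripts became 2 with that filter, 11 with a pseudocount of 0.01 and 10 to 12 with a library left out, whichever it was. The 5 pathway genes became 2 without trend and 9 with the replicate block, and were fewer without IgG RIP replicate 2 and without either KIAA1429 RIP library. The 2 members at least 2-fold higher and the 2 lower became 0 and 1 with a filter at 5 FPKM. With a library left out these counts changed as well, and the lower count was largest without KIAA1429 RIP replicate 1. Shares of all features under these settings are not given here, so the counts describe the members alone. The median log2 ratio of the members ranged from -0.12 without IgG RIP replicate 2 to 0.17 without IgG RIP replicate 1. The causes were not tested.

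Of 25 named genes and transcripts, 16 kept the sign of their limma log2 fold change under every alternative run. With quantile normalization the sign turned for RAB7A (-0.015), RAB1B (-0.063) and RAB10 (-0.091), with median scaling for RAB10 (-0.0028), with protein-coding transcripts alone for RAB10 (-0.047), and with the most abundant transcript for RAB10 (-0.047), RAB1A (-0.254), RAB27A (-0.157), RAB29 (-0.249) and MLPH (0.671). With a library left out, log2 fold changes ranged from -0.0943 to 0.52 for RAB7A, from -0.0935 to 0.145 for RAB1B, from -0.285 to 0.308 for RAB10, from -0.0053 to 0.249 for RAB11A, from -0.196 to 1.40 for RAB27A, from -1.38 to 0.125 for RAB5A and from -0.501 to 0.287 for MLPH.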
